A study of Rattus norvegicus with 15 samples.

Results

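Apln, which encodes the peptide hormone apelin, was examined in the ventral tegmental area of the rat midbrain together with 9 genes of the hypoxia and glycolysis response: Vegfa, Adm, Egln3, Bnip3, Pdk1, Slc2a1, Ldha, Hk2 and Hif1a. The members were all 13 probe sets that the array annotation names with exactly 1 of these symbols, standing for 10 of the 14217 genes so named. Apln, Vegfa and Pdk1 had 2 probe sets each and the other 7 genes 1. The set was chosen by measured values, the ethanol minus water log2 differences of these same arrays, with Apln as the gene that prompted it, so the members' differences between the groups are given as a description and without a p-value.

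RNA came from 7 rats given ethanol and 8 age-matched rats given water, with 1 Affymetrix array per animal. By the series title these were alcohol-preferring (P) rats, selected over generations for drinking. The title also names loss-of-control drinking, which can apply only to the rats given ethanol. The design text instead mentions a comparison of drinking lines, which the sample labels do not carry: they separate ethanol from water alone. The sources used here do not state age, sex, litter, dose, the hours since drinking or the days of hybridization, and ethanol animal 3 was not analysed here. Tissue of the region was taken whole, so a change in the number of cells of a type and a change in RNA per cell cannot be told apart in any value below.

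Cells sense oxygen through the EGLN prolyl hydroxylases, which mark the alpha subunits of hypoxia-inducible factor (HIF) for destruction by the VHL ubiquitin ligase as long as oxygen is present. When oxygen falls, HIF-1 alpha, the product of Hif1a, accumulates and induces genes for glucose uptake, glycolysis, lactate formation, blood vessel growth and removal of mitochondria. In the brain, Slc2a1 (the glucose transporter GLUT1) is best known from the endothelium of the blood-brain barrier, and apelin acts through a G protein-coupled receptor, APLNR, on vessels, on fluid balance and on neurons.

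The values are log2 intensities made by the authors with RMA, and differences are ethanol minus water, with the standard error (SE) from a limma fit across the array. Probe sets entered that fit when they averaged at least 6.94, the 40th percentile. Of the 13 probe sets, 12 passed, for 9 genes. The single Hk2 probe set did not. As a check of the tissue, Th (tyrosine hydroxylase, the dopamine neuron enzyme) averaged 14.94 ± 0.22 over the 7 ethanol rats and 14.80 ± 0.26 over the 8 water rats (SD). The choroid plexus markers Ttr, Kl and Folr1 had no probe set above the filter. Across the array, limma with Benjamini-Hochberg adjustment called 173 of 18625 kept probe sets at an adjusted p below 0.05, or 0.929%. That count was 101 without ethanol rat 7 and 102 without ethanol rat 8.

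Of the 12 kept member probe sets, 2 were called, both of them Apln and both lower in ethanol rats, a direction in which 0.542% of all kept probe sets were called, against 0.387% called higher. Since the difference of Apln prompted the set, that it stands out within it was fixed by the choice, and nothing is read from that count. The other 10 kept probe sets, for 8 genes, had differences from -0.24 to 0.19 log2 units with a median of 0.019, against a median of 0.0062 over all kept probe sets. Their signs were mixed, 7 positive and 3 negative.

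**Figure D1:**
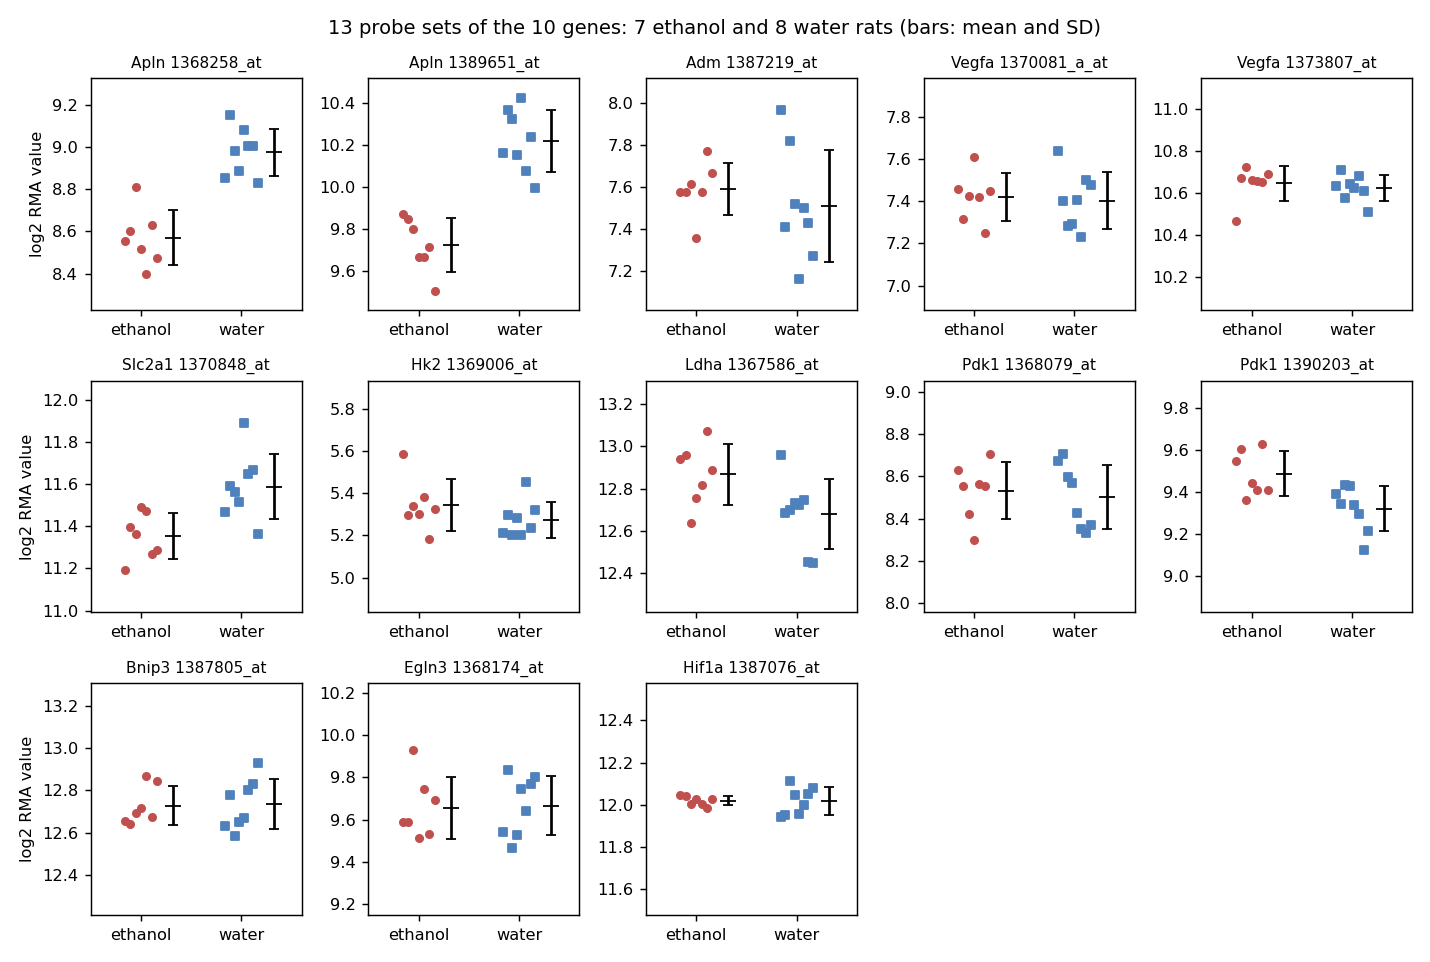
Log2 RMA values (vertical axes, each spanning the same range; horizontal axes, group) of the 13 probe sets in each of 7 ethanol rats (circles) and 8 water rats (squares), with the mean and SD of each group beside the points. Only in the 2 Apln panels do the groups not overlap.

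Among the secreted ligands, Apln had log2 values in its brighter probe set, 1389651_at, of 9.51 at the lowest, 9.71 at the median and 9.87 at the highest in ethanol rats, against 9.995, 10.20 and 10.42 in water rats. Every ethanol rat lay below every water rat, with 0.126 log2 units between the nearest animals. The means were 9.72 ± 0.13 over the 7 ethanol rats and 10.22 ± 0.15 over the 8 water rats (SD), a difference of -0.49 log2 units (SE 0.07, 95% interval -0.64 to -0.35), or 28.9% lower on the linear scale. The dimmer probe set, 1368258_at, ran from 8.40 through a median of 8.55 to 8.81 in ethanol rats and from 8.83 through 8.995 to 9.15 in water rats. Here too the groups did not overlap, though the nearest animals were only 0.017 log2 units apart. The difference was -0.41 log2 units (SE 0.06, 95% interval -0.53 to -0.28), or 24.5% lower. Groups that do not overlap were found in 0.623% of all kept probe sets. By size of difference the brighter probe set was number 31 and the dimmer number 67 from the most negative of the 18625.

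The 2 Apln probe sets were read from the same rats and also tracked each other within the groups. With group means removed, their values correlated over the 15 rats at Pearson r = 0.66 (permutation p = 0.0114) and Spearman rho = 0.68 (permutation p = 0.00835), and at r = 0.56 without the 2 rats farthest from the median.

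Adm, which encodes the vasodilator peptide adrenomedullin, ranged from 7.36 through a median of 7.58 to 7.77 in ethanol rats and from 7.16 through 7.47 to 7.97 in water rats. The ethanol values lay inside the water range, and the difference was 0.08 log2 units (SE 0.10). The SD was 0.12 log2 units in ethanol rats and 0.27 in water rats, a contrast that was not tested. Ethanol rats 1, 2 and 6 had exactly the same value, 7.58, so the ethanol SD rests partly on tied values. Vegfa, the main growth factor of blood vessels, had medians of 10.66 in ethanol rats and 10.63 in water rats in its brighter probe set, 1373807_at, with a difference of 0.02 log2 units (95% interval -0.06 to 0.11). Its dimmer probe set, 1370081_a_at, differed by 0.01 log2 units (95% interval -0.12 to 0.15). The ethanol and water values of both Vegfa probe sets overlapped, and 1 ethanol rat, number 1, lay at 10.47 in the brighter probe set while the other 6 ethanol rats lay between 10.65 and 10.72.

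Among the genes of glucose use, the differences went both ways. Slc2a1 ranged from 11.19 through a median of 11.36 to 11.49 in ethanol rats and from 11.36 through 11.58 to 11.89 in water rats. In 4 of the 7 ethanol rats it was below every water rat, and 6 of the 8 water rats were above every ethanol rat. The difference of -0.24 log2 units (SE 0.07, 95% interval -0.38 to -0.09), a fold of 0.850, was not called. It shrank to -0.052 log2 units (SE 0.08) with the mean of the oligodendrocyte markers as a covariate. The 7 measured markers of that list (Mbp, Mog, Mag, Cnp, Mobp, Cldn11 and Ugt8) were all lower on average in ethanol rats, 2 of them called, and their mean log2 level ran from 13.58 to 13.90 in ethanol rats and from 13.86 to 14.29 in water rats. Their part in the Slc2a1 difference was not tested.

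Ldha, which encodes the lactate dehydrogenase subunit that favours lactate formation, ranged from 12.64 through a median of 12.89 to 13.08 in ethanol rats and from 12.45 through 12.71 to 12.96 in water rats. Ethanol values were above the water mean in 6 of 7 rats, but the groups overlapped, and the difference of 0.19 log2 units (SE 0.08, 95% interval 0.03 to 0.35) was not called. Pdk1 encodes a kinase that switches off pyruvate dehydrogenase and so keeps pyruvate out of the mitochondria. Its brighter probe set, 1390203_at, ranged from 9.36 through 9.44 to 9.63 in ethanol rats and from 9.12 through 9.34 to 9.43 in water rats. In 4 ethanol rats it lay above every water rat, and in 5 water rats below every ethanol rat. That difference was 0.17 log2 units (SE 0.05, 95% interval 0.05 to 0.28), while the dimmer probe set, 1368079_at, differed by 0.03 (95% interval -0.12 to 0.18), and neither was called. With the oligodendrocyte marker mean as a covariate the Ldha difference was 0.26 (SE 0.11). The brighter and the dimmer Pdk1 probe set were then at 0.17 (SE 0.08) and 0.0047 (SE 0.10). Hk2, the hexokinase isoform induced by insulin and hypoxia, was dim, at 5.34 ± 0.12 over the 7 ethanol rats and 5.28 ± 0.09 over the 8 water rats (SD), under the filter, so no change could be read from it.

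The HIF regulators and the mitochondrial member lay close to 0 in their differences. Hif1a itself averaged 12.02 ± 0.02 over the 7 ethanol rats and 12.02 ± 0.06 over the 8 water rats (SD), with a difference of 0.0016 log2 units and a 95% interval from -0.07 to 0.07. HIF-1 alpha is controlled mainly at the level of the protein, which arrays do not see. Egln3, a prolyl hydroxylase that HIF itself induces, averaged 9.66 ± 0.15 over the 7 ethanol rats and 9.67 ± 0.14 over the 8 water rats (SD), a difference of -0.01 (95% interval -0.16 to 0.14). Bnip3, a mitochondrial membrane protein that recruits autophagy to mitochondria, averaged 12.73 ± 0.09 over the 7 ethanol rats and 12.74 ± 0.12 over the 8 water rats (SD), a difference of -0.01 (95% interval -0.12 to 0.11). These intervals hold the differences that remain compatible with the 15 arrays, and they are not a limit of detection.

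**Figure D2:**
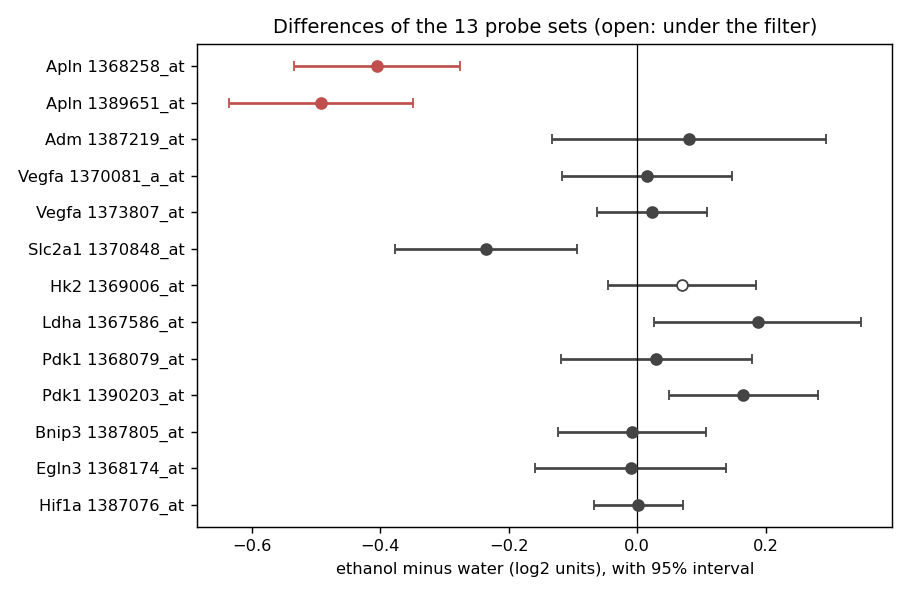
Difference of ethanol minus water in log2 units (horizontal axis) for each of the 13 probe sets (vertical axis), with the 95% interval from limma's SE. The 2 Apln probe sets lie at -0.49 and -0.41, Slc2a1 at -0.24, and Ldha and the brighter Pdk1 probe set at 0.19 and 0.17, with the open point, Hk2, under the filter.

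The promoters of Apln and of the other 3 genes with the largest differences are shown to set the known HIF binding core beside the members' differences. RefSeq windows (build GRCr8) running from 250 bases before to 50 bases after the transcript start used in the RefSeq table were searched for the letters ACGTG and GCGTG, the core of the hypoxia response element, on both strands, so that CACGT and CACGC count as well and overlapping matches count separately. That start is the outermost start of the gene for Slc2a1 and Ldha, but lies 50 bases inside it for Pdk1, 272 for Apln, 2110 for Hif1a, 7424 for 1 of the 2 Vegfa windows and 16022 for Adm. The windows of Apln, Hif1a and Adm and that Vegfa window lie wholly within the gene. Capitals mark the matches, and each sequence is written 5′ to 3′ on the strand of the gene.
Apln, chrX:132091197-132091496, minus strand: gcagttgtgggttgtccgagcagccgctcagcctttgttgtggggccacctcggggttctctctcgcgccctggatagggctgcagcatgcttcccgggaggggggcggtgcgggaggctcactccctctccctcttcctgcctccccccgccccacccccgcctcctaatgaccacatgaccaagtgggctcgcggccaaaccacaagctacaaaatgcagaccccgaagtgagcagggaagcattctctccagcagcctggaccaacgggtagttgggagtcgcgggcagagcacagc
Slc2a1, chr5:138002272-138002571, plus strand: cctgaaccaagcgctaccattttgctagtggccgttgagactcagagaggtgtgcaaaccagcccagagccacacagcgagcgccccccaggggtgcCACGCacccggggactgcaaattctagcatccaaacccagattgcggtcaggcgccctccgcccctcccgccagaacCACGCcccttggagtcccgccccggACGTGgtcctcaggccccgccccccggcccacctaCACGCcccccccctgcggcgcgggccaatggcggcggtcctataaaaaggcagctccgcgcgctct
Ldha, chr1:106507842-106508141, plus strand: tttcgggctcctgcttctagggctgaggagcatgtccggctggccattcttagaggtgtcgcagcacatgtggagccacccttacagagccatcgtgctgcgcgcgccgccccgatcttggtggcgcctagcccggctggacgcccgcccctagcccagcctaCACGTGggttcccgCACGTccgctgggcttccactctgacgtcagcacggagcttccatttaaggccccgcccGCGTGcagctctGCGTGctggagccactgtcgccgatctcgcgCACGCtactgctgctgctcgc
Pdk1, chr3:77113264-77113563, plus strand: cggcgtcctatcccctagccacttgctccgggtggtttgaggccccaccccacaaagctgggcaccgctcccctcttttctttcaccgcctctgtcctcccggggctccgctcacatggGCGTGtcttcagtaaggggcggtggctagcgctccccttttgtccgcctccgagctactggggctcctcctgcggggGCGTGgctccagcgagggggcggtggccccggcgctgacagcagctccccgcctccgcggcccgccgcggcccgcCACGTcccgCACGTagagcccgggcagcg
The window of Apln held 0 matches, Slc2a1 and Pdk1 held 4 each and Ldha held 6, among them an ACGTG that begins 86 bases before that start. Of the 11 member windows, which cover all 10 genes with Vegfa having 2, 5 held a match, those of Bnip3, Pdk1, Slc2a1, Ldha and Hif1a, against 41.6% of all 33469 windows of this length. A match is a run of letters and not a known site, and its lack in a window says nothing about sites elsewhere.

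Around the 10 genes, lists of further pathway genes were taken, 1 probe set per gene, and compared with all 10252 genes, of which 1.14% were called and 12.4% had an unadjusted p below 0.05. Among HIF-regulated genes outside the members, 23 of 29 on the array were measured. Ddit4 was the 1 gene called in that list, and it fell. Ddit4 encodes REDD1, an inhibitor of mTOR signalling that hypoxia, glucocorticoids and other stresses induce. Its log2 values ran from 9.65 through a median of 9.90 to 10.35 in ethanol rats and from 10.32 through 10.64 to 10.77 in water rats, a difference of -0.64 (SE 0.10, limma adjusted p = 0.00587). All 7 ethanol rats lay below the water mean, and the highest ethanol rat just passed the lowest water rat. The fall of Ddit4 was known from earlier results of these arrays when the list was written. With the oligodendrocyte marker mean as a covariate the difference was -0.48 (SE 0.14) and the call ended (limma adjusted p = 0.0940). That covariate itself differed between the groups, by -0.25 log2 units, and the SE was larger with it than without it. The part of oligodendrocytes in the Ddit4 difference was not tested.

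The other 22 measured genes of the list did not pass. At an unadjusted p below 0.05 there were 9 of 23, 4 with higher and 5 with lower means in ethanol rats, or 39.1% against the 12.4% of all genes. The list was written with earlier results of these arrays known, so nothing is read from that share. The median of the list was -0.0070, against 0.0017 over all genes. Angptl4, a secreted inhibitor of lipoprotein lipase, was at 8.82 ± 0.14 over the 7 ethanol rats and 9.05 ± 0.17 over the 8 water rats (SD), a difference of -0.24 (SE 0.08, limma adjusted p = 0.193). Stc1, the glycoprotein stanniocalcin, differed by -0.21 (SE 0.08, limma adjusted p = 0.265), with all 7 ethanol rats below the water mean. That probe set was dim, at a mean of 7.39, and the other Stc1 probe sets, under the filter, differed by 7.5e-05 and -0.022. Ankrd37, an ankyrin repeat protein and direct HIF-1 target, went the other way, at 9.46 ± 0.19 over the 7 ethanol rats and 9.21 ± 0.18 over the 8 water rats (SD), a difference of 0.25 (SE 0.09, limma adjusted p = 0.247). With the oligodendrocyte marker mean as a covariate Angptl4 was at -0.21, Stc1 at -0.26 and Ankrd37 at 0.18. The remaining 5 of the 9 were P4ha1 at -0.16 and Pfkfb4 at -0.12, and Plin2 at 0.18, Pfkfb3 at 0.12 and Ero1a at 0.10 log2 units. Other known HIF targets lay close to 0, among them Ndrg1 at 0.0013, Bnip3l at 0.0034 and Hmox1 at 0.0092 log2 units.

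**Figure D3:**
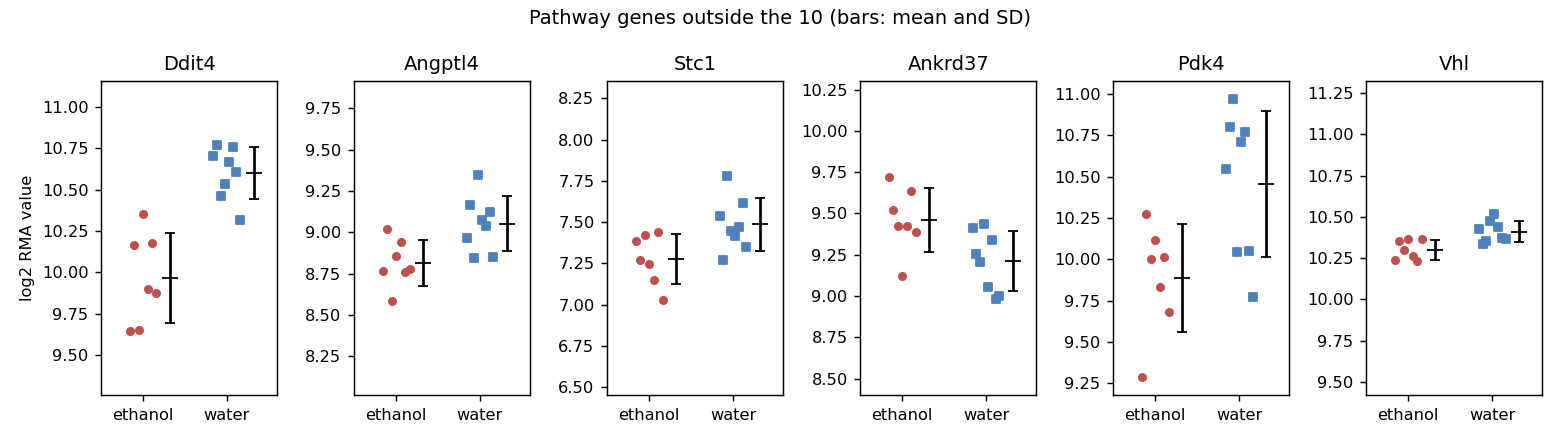
Log2 RMA values (vertical axes, each spanning the same range; horizontal axes, group) of 6 genes of the pathway lists in 7 ethanol rats (circles) and 8 water rats (squares), with the mean and SD of each group. Ddit4 shows the clearest separation, and the Pdk4 values of 3 water rats lie within the ethanol range.

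Enzymes and transporters of glycolysis and lactate gave no call. Of 22 measured genes none passed in limma, 2 had an unadjusted p below 0.05, both lower in ethanol rats, and the list median was -0.0081. Those 2 were kinases of the same family as Pdk1. Pdk4, the isoform induced by fasting and glucocorticoids, was at 9.89 ± 0.33 over the 7 ethanol rats and 10.46 ± 0.44 over the 8 water rats (SD), a difference of -0.57 (SE 0.18, limma adjusted p = 0.191), and at -0.14 with the oligodendrocyte marker mean as a covariate. Pdk3 differed by -0.15 (SE 0.07, limma adjusted p = 0.411), and its second kept probe set by -0.20. With the oligodendrocyte marker mean as a covariate Pdk3 was at -0.31 (limma adjusted p = 0.0820). Hk1, the main hexokinase of brain, differed by 0.06 (SE 0.04, limma adjusted p = 0.610), and by 0.03 with that covariate. Other probe sets, under the filter, were at -0.14 for Hk1 and -0.16 for Pdk4. The glycolytic enzymes Pgk1, Aldoa, Tpi1 and Eno1 lay at -0.038, 0.012, -0.0092 and -0.023 log2 units.

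Of the oxygen sensing genes, 12 of 14 on the array were measured, none was called by limma, and 2 had an unadjusted p below 0.05. Vhl, the substrate receptor of the ligase that removes HIF, was at 10.30 ± 0.06 over the 7 ethanol rats and 10.41 ± 0.06 over the 8 water rats (SD), a difference of -0.11 (SE 0.04, limma adjusted p = 0.229), with all 7 ethanol rats below the water mean, and it was -0.03 with the oligodendrocyte marker mean as a covariate. Cul2, the scaffold of the same ligase, differed by 0.11 (SE 0.05, limma adjusted p = 0.361), and its second kept probe set by 0.05. Eloc, the elongin C subunit, differed by -0.07 (SE 0.04, limma adjusted p = 0.481), and its second kept probe set by 0.0058. With that covariate Cul2 was at 0.12 and Eloc at -0.08. Epas1, which encodes HIF-2 alpha, lay at -0.019. The list median was -0.039.

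For the receptors and partners of apelin, VEGF and adrenomedullin, 12 of 19 genes on the array were measured, none was called by limma, 2 had an unadjusted p below 0.05, and the median was -0.030. Aplnr, the apelin receptor, and Calcrl, the receptor of adrenomedullin, had no probe set above the filter, so the receptor side of Apln was not measured. Ramp1, a partner that turns CALCRL into a receptor for calcitonin gene-related peptide, differed by -0.14 (SE 0.06, limma adjusted p = 0.324), and by -0.08 with the oligodendrocyte marker mean as a covariate. Ackr3, a scavenging chemokine receptor that also takes up adrenomedullin, differed by -0.17 (SE 0.08, limma adjusted p = 0.409), and by -0.13 with that covariate. Tek, the angiopoietin receptor of endothelium, differed by 0.10 (SE 0.05, limma adjusted p = 0.491), and by 0.17 with that covariate. The VEGF receptors Kdr and Flt1 lay at 0.10 and 0.040.

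**Figure D4:**
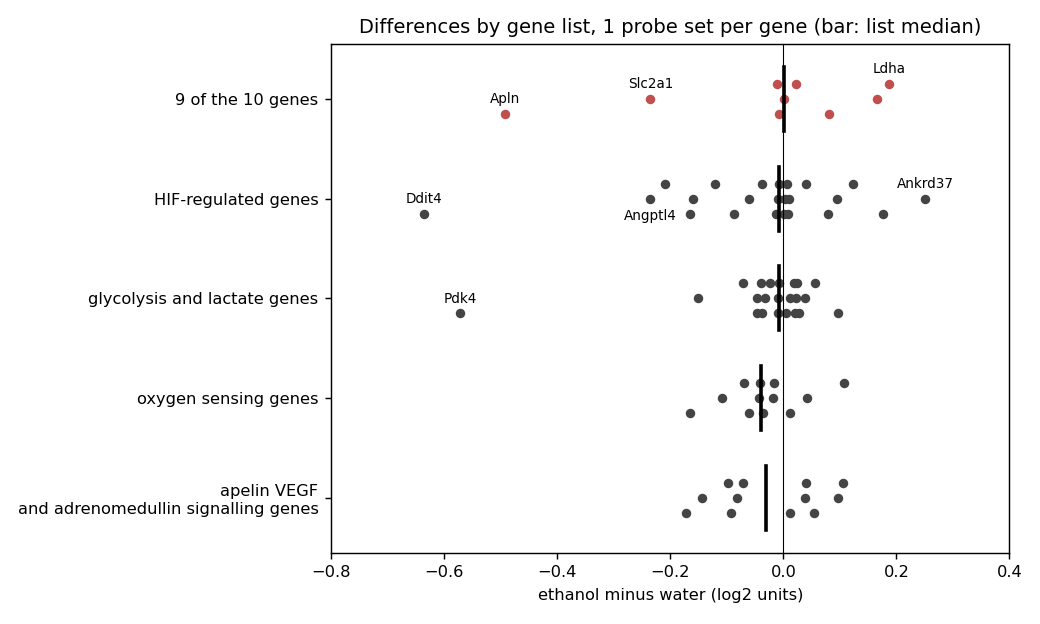
Difference of ethanol minus water in log2 units (horizontal axis) for single genes, each a point, in 9 of the 10 genes and in 4 lists of pathway genes (vertical axis), with the list median as a bar. The list medians lie between -0.039 and -0.0070, and Ddit4, Pdk4 and Apln lie farthest from 0.

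Apln is made by endothelial cells as well as by neurons, so vessel markers were set beside it, and then those of other cells. None of the 8 measured endothelial markers (Pecam1, Cldn5, Emcn, Esam, Slco1a4, Abcb1a, Ocln and Vwf) and none of the 5 measured mural markers was called by limma or had an unadjusted p below 0.05. The mean log2 level of the endothelial markers ran from 9.27 to 9.52 in ethanol rats and from 9.22 to 9.57 in water rats. For the mural markers it ran from 8.39 to 8.60 in ethanol rats and from 8.47 to 8.70 in water rats. The groups overlapped in both marker means. All 6 microglia markers (Aif1, Tmem119, Cx3cr1, Csf1r, P2ry12 and Itgam) had higher means in ethanol rats, 4 with an unadjusted p below 0.05 and 0 called by limma, with a median difference of 0.20. Their mean log2 level ran from 9.15 to 9.42 in ethanol rats and from 8.85 to 9.30 in water rats. With the oligodendrocyte marker mean as a covariate the Apln differences were -0.45 (SE 0.10) and -0.36 (SE 0.09). Deviations of each rat from its group mean were also correlated between Apln's brighter probe set and the marker means. The r was -0.086 for the endothelial, 0.091 for the mural and 0.089 for the microglia mean. For the astrocyte, oligodendrocyte and dopamine neuron means it was 0.099, 0.16 and 0.29. The part of vessel cells and of microglia in the Apln values was not tested.

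Whether the other members varied with Apln from rat to rat was tested with the ethanol against water difference removed, by correlating each rat's deviations from the mean of its own group. None of the 9 relations passed. The strongest was with Bnip3 (Pearson r = -0.62, permutation p = 0.0225, adjusted over the 9 p = 0.203; Spearman rho = -0.52, permutation p = 0.0658), and r was -0.48 without water rats 5 and 8, the 2 farthest from the median of Apln, and -0.30 with the other Apln probe set. The remaining relations had r between -0.18 for Hif1a and 0.40 for Slc2a1. Slc2a1 and Apln correlated at 0.71 in the 8 water rats and at -0.20 in the 7 ethanol rats, and r over all rats was -0.11 without water rats 5 and 8, so the pooled value rests on those animals. Of 10243 other genes, the 5 whose deviations followed Apln's brighter probe set most closely over the 15 rats were the kinase gene Eef2k (r = 0.83), Bcl7a (0.82), the RNA polymerase II subunit gene Polr2a (0.81), Zkscan1 (0.81) and the corticosteroid-induced transcription factor gene Klf9 (0.80), and with the dimmer probe set these values were 0.59, 0.62, 0.35, 0.65 and 0.67. These genes were picked as the highest r among so many and were not tested, so no relation with Apln is read from them.

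Here and in the relations below, each gene was represented by its brightest probe set, for Pdk1 1390203_at. The dimmer Pdk1 probe set was not tested. Among the 45 pairs of the 10 genes, a family of tests added after the values had been seen, Pdk1 and Ldha varied together. Their deviations correlated at Pearson r = 0.81 (permutation p = 0.00064, adjusted p = 0.0288) and Spearman rho = 0.79 (permutation p = 0.0016, adjusted p = 0.036), at r = 0.88 in ethanol rats and 0.77 in water rats, and at 0.71 without the 2 rats farthest from the median. The adjusted p passed 0.05 when ethanol rat 1, 2 or 7 or water rat 5 or 7 was left out, up to 0.0695, while r stayed between 0.77 and 0.85. Bnip3 ran against Pdk1 (r = -0.75, permutation adjusted p = 0.0502; rho = -0.77, permutation adjusted p = 0.036). Egln3 did so almost as strongly, without passing (r = -0.72, permutation adjusted p = 0.0560; rho = -0.67, permutation adjusted p = 0.138). Of the 45 pairs 18 had a positive r, and the median r was -0.087.

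The pair moved with a wider feature of the arrays. Here Ldha, Pdk1, Bnip3, Egln3 and Slc2a1 alone were set against marker means and other array measures. These 45 relations are not the 45 pairs above. They too were added after the values had been seen, and the adjustment does not cover the choice of these genes. Pdk1 and Ldha each correlated with the mean of the 6 measured dopamine neuron markers (Th, Slc6a3, Ddc, Slc18a2, Drd2 and Nr4a2), at r = 0.80 (permutation p = 0.00103, adjusted over 45 relations p = 0.00927; rho = 0.79, permutation p = 0.00147) for Pdk1 and r = 0.79 (permutation p = 0.00089, adjusted p = 0.00927; rho = 0.81, permutation p = 0.00088) for Ldha. Without the 2 rats farthest from the median of the marker mean, r was 0.78 for Pdk1 and 0.69 for Ldha. That mean ran from 13.06 to 13.67 in ethanol rats and from 12.86 to 13.53 in water rats, all 6 markers having higher means in ethanol rats and none being called. Both genes also followed the first principal component of the group-centred arrays, which held 32.4% of the variance (r = -0.77 for each, permutation adjusted p = 0.00927), and Bnip3 followed it with the opposite sign (r = 0.83, permutation adjusted p = 0.00927). Against the dopamine neuron marker mean, Bnip3 had r = -0.68 (permutation adjusted p = 0.0573) and Egln3 r = -0.59 (permutation adjusted p = 0.111), and neither passed. The 3′ minus 5′ signal of control transcripts, a sign of RNA quality, correlated with Pdk1 at r = 0.62 (permutation adjusted p = 0.0826). The part of cell content and RNA quality in the Pdk1 and Ldha values was not tested.

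The deviations of Slc2a1 correlated with the mean of the mural markers (Pdgfrb, Rgs5, Abcc9, Acta2 and Cspg4) at r = 0.79 (permutation p = 0.00133, adjusted p = 0.00998; rho = 0.70, permutation p = 0.00529), the 1 relation of this gene that passed. With the oligodendrocyte marker mean r was 0.68 (permutation p = 0.0124, adjusted p = 0.0697; rho = 0.54, permutation p = 0.0512). With the endothelial mean it was 0.65 (permutation p = 0.0161, adjusted p = 0.0774; rho = 0.69, permutation p = 0.00818). Without the 2 rats farthest from the median, r was 0.56 for the mural, 0.44 for the oligodendrocyte and 0.66 for the endothelial mean. Water rat 5 was the highest of all rats in Slc2a1 and in the mural mean, and without it the mural r was 0.62 (permutation adjusted p = 0.108). Between the groups the mural, oligodendrocyte and endothelial means differed by -0.0064, -0.25 and -0.013 log2 units, against -0.24 for Slc2a1. The part of any of these cell types in the Slc2a1 difference was not tested.

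**Figure D5:**
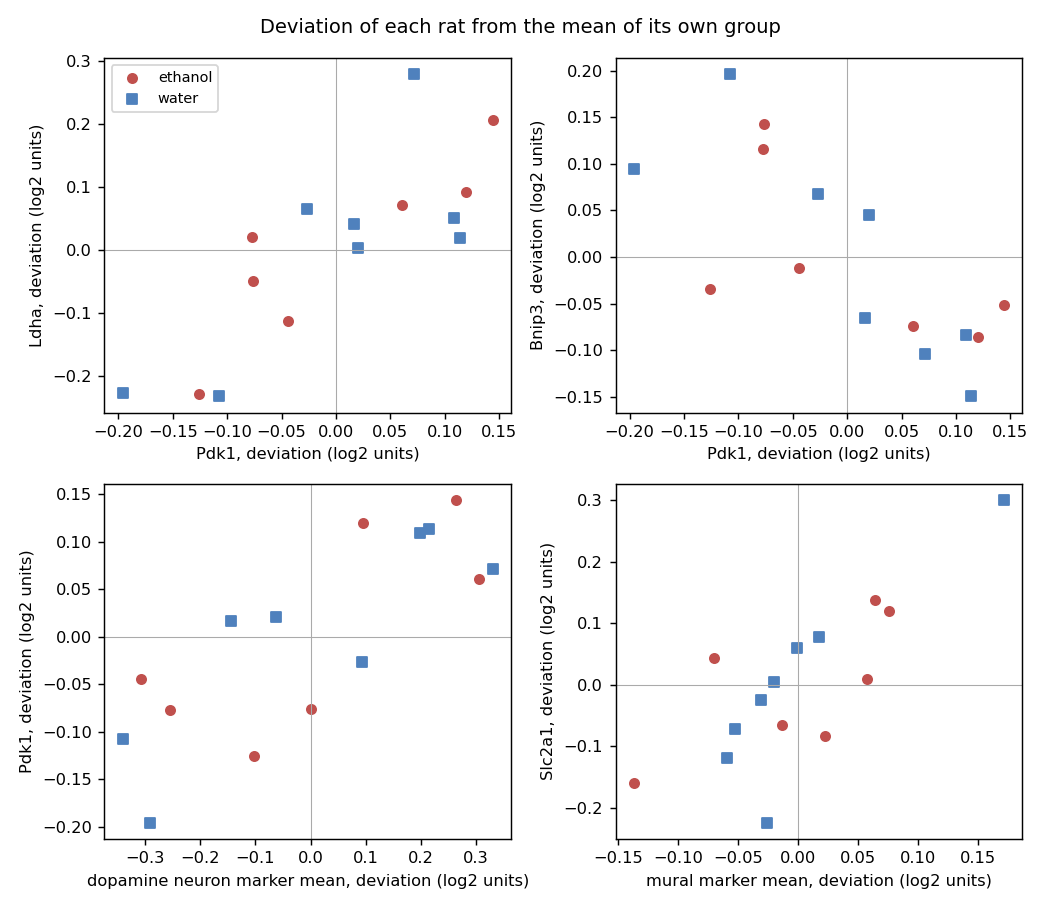
Deviation of each rat from the mean of its own group, in log2 units on both axes, for 7 ethanol rats (circles) and 8 water rats (squares): Ldha and Bnip3 against Pdk1, Pdk1 against the dopamine neuron marker mean, and Slc2a1 against the mural marker mean. Ldha rises with Pdk1 (r = 0.81), Bnip3 falls with it (r = -0.75), and the single water rat at the upper right of the last panel is water rat 5.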

How the data were processed

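RNA of the ventral tegmental area from 15 rats was measured on Affymetrix arrays, from 25 ng of total RNA per the labels. The values are log2 intensities that the authors deposited after RMA, per the submitters' processing notes; the sources used here name no software version. RMA equalizes the arrays' distributions, so shifts common to most transcripts are lost, and small differences of dim probe sets are compressed. Depth has no meaning here: the number of arrays limits the precision, with a median SE of 0.056 log2 units.

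The table held 31099 probe sets, 57 of them controls, and 0 columns were left unused. Gene symbols came from GEO's platform annotation: 20826 probe sets had 1 symbol, 436 several and 9780 none. Probe sets whose mean reached the 40th percentile, 18625 in all, entered a two-sided limma test without covariates (limma 3.58.1, R 4.3.3; lmFit and eBayes) and adjusted by Benjamini-Hochberg over all of them; the procedure was tested on simulated data. Rats are separate animals per the labels. For lists and correlations, a gene's kept probe set with the highest mean was used unless another is named. Hk2, with none kept, was represented in correlations by its single probe set. Correlations used two-sided permutation tests with 100000 shuffles within groups, in Python 3.11.15.

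The members and lists were chosen with earlier results of these data known. Named are all member probe sets, every called gene and the 3 further genes of smallest p in each pathway list, the 5 genes most like Apln, Th and the cell type markers; other list genes given as examples were chosen after their values were seen. Alternatives were no filter or a stricter one, array weights, a further quantile normalization, the replicate number as a block, the oligodendrocyte marker mean as a covariate, and leaving out each array.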

Additional observations from a re-analysis of the deposited data

Results flagged for a closer look

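Of 76 sets of values, each of 7 or 8 rats and 1 group, 4 had 1 rat set apart from the others by Dixon's test at its 95% critical value, which chance gives in about 1 of 20. Ethanol rat 1 was lowest in Vegfa probe set 1373807_at, at 10.47, the other 6 lying between 10.65 and 10.72. Water rat 4 was lowest in Cul2, at 9.11, with the others between 9.23 and 9.33. Water rat 8 was lowest in Ramp1, at 9.55, with the others between 9.80 and 9.97. Water rat 5 was highest in the mean of the mural markers, at 8.70, with the others between 8.47 and 8.55. No Apln value was set apart in this way.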

How the results depend on the processing

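The differences of the 2 Apln probe sets ran from -0.52 to -0.46 and from -0.45 to -0.38 log2 units when 1 array was left out, and from -0.49 to -0.45 and from -0.41 to -0.36 under the other alternatives, a description of the values the set was chosen by. The count of called probe sets on the whole array was 173 and ran from 101 to 184 with 1 array left out. It was 59 with the replicate number as a block and 495, 398 of them higher and 97 lower, with the oligodendrocyte marker mean as a covariate, against 72 higher and 101 lower without it. The replicate numbers were not used as pairs: deviations of same-numbered rats correlated above 0.1 in 4 of 7 pairs, and 1 of the 7 ethanol rats correlated best with the water rat of its number. Counts of called genes in the 4 pathway lists stayed at 1, 0, 0 and 0 in all fits. The covariate, however, ended the call of Ddit4, which was lower in ethanol rats, and the list's 1 call was then another gene, higher in ethanol rats. No relation with Apln passed in any alternative. The count of member pairs past the threshold was 1 and ran from 0 to 4 with 1 array left out, and that of relations with array measures was 6 and ran from 6 to 9. The causes of these shifts were not tested. The Hk2, Aplnr and Calcrl probe sets were too dim to be read.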
